A study of Caenorhabditis elegans with 2 samples.

Results

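Of the 1705 autosomal peaks that the authors held to be reproducible in this chromatin immunoprecipitation and sequencing (ChIP-seq) study, 510 lay at divergent promoters and are described here. A divergent promoter is a stretch of DNA between a pair of genes that are read away from each other, one from each strand. A peak was counted when its summit, the base of highest signal, lay from 1000 bp upstream to 200 bp downstream of annotated transcript starts of protein-coding genes on both strands. On the 5 autosomes these peaks made up 29.9% of all thresholded peaks (95% Wilson interval 27.8 to 32.1) and 40.7% (38.0 to 43.4) of the 1254 peaks at any promoter window. The intervals cover the counting of peaks, genes or windows only. The other autosomal peaks were 744 with starts on 1 strand in the window, called one-strand peaks here, and 451 with none, called peaks away from promoters.

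The assay mapped the homeodomain protein CEH-82 (gene ceh-82, also F45C12.2) in whole first-stage (L1) larvae of Caenorhabditis elegans, with both sexes pooled. The animals were of strain OP212, genotype unc-119(ed3) III; ddEx58. They carried the gene with a GFP-FLAG tag at the C terminus of its product on ddEx58, whose name is that of an extra-chromosomal array, although the labels also speak of an insertion. There was 1 group of 2 biological replicates, each from its own biosample of this 1 line, so no condition could be compared, and peaks of the same libraries are not replicates of each other. All values below are therefore descriptions without a test. The control experiment named in the labels was not analysed here, and an array can express its gene at other levels and in other cells than the native locus does.

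Divergent promoters are common in the compact genome of this worm, and factors bound between such a pair of genes can act on either, both or neither. Most worm transcripts have their 5′ end replaced by a spliced leader, so an annotated start is often the site of that splice and the true start of transcription can lie further upstream. Homeodomain proteins bind DNA through a helix that rests in the major groove, and many of them prefer sites with a TAAT core. Genes of ribosomes, proteasomes, splicing and respiration are active in nearly all cells, whereas chemoreceptor genes are active in few neurons each.

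Summits fell in GC-rich DNA, and a few short words recurred there. The 100 bp centred on the summit are shown for the 12 strongest divergent-promoter peaks on chromosomes II to V whose window overlaps no annotated coding exon or untranslated stretch. They are given on the plus strand, 5′ to 3′, from the WBcel235 (ce11) sequence of RefSeq. Each line names the gene on the minus strand and then the gene on the plus strand. Capitals mark matches to CGCTCCA (on the opposite strand TGGAGCG), to CGCGCTC (on the opposite strand GAGCGCG), to CTGGCGC (on the opposite strand GCGCCAG) and to CATACAC (on the opposite strand GTGTATG). A match is a description of the letters, not a bound site.
rpl-15 and K11H12.8, chrIV:654872-654971: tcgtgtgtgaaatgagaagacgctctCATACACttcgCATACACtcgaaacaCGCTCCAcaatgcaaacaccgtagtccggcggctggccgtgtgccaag
rpl-20 and Y17G9B.5, chrIV:4750027-4750126: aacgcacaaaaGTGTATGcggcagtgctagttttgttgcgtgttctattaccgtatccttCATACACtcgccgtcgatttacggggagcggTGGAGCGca
K01G5.10 and tasp-1, chrIII:10759202-10759301: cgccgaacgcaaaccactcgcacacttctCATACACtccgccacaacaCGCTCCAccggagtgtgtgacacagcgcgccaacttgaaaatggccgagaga
ska-3 and rps-12, chrIII:5679080-5679179: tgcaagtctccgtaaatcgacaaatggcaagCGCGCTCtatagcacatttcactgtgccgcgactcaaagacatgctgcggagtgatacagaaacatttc
iff-2 and F54C9.14, chrII:8561389-8561488: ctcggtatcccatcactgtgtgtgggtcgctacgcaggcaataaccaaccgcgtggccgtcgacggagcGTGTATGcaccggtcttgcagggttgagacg
Y71H2AM.20 and cox-6B, chrIII:2786000-2786099: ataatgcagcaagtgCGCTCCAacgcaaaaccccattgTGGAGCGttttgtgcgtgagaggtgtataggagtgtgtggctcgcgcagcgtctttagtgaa
hsp-110 and rpn-3, chrIII:8447110-8447209: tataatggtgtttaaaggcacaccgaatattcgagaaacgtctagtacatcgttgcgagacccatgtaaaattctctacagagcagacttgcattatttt
dnsn-1 and C24H12.4, chrII:411017-411116: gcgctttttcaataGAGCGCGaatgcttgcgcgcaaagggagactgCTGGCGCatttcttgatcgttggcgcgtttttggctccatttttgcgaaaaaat
drr-2 and set-16, chrIII:13643662-13643761: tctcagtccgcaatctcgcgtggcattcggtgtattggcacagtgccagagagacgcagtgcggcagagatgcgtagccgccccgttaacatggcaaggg
rbc-2 and ndua-8, chrIII:2528772-2528871: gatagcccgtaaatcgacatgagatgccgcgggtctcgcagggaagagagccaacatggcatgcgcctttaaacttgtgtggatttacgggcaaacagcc
C47E8.4 and hsp-90, chrV:14685715-14685814: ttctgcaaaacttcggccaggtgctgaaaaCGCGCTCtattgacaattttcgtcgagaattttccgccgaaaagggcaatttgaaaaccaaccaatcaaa
haf-3 and F57A10.2, chrV:15766344-15766443: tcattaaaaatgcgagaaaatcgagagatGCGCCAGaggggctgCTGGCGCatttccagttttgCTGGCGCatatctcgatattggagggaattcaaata

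In these windows G and C made up between 38% (hsp-110 and rpn-3) and 61% (iff-2 and F54C9.14) of the bases. The window of haf-3 and F57A10.2 held CTGGCGC at 3 places on both strands, and that of Y71H2AM.20 and cox-6B held CGCTCCA once on each strand. The window of rpl-15 and K11H12.8 held CATACAC at 2 places, with CGCTCCA after them. The windows of hsp-110 and rpn-3, of drr-2 and set-16, and of rbc-2 and ndua-8 held none of these words.

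Both replicates ranked the same gene pairs near the top. The strongest divergent-promoter peak lay between rpl-15, which encodes a protein of the large ribosomal subunit, and K11H12.8. Its signal, the authors' score for a peak, was 399 in the thresholded list, where it ranked 2 of 2052. Its signal was 68.0 in replicate 1 (rank 5 of 16551 peaks) and 329 in replicate 2 (rank 1 of 30000). The scale of the score differs between lists, so values are compared within a list only. The next peak, between rpl-20, another large-subunit gene, and Y17G9B.5, had a signal of 357, with 90.4 in replicate 1 (rank 3) and 269 in replicate 2 (rank 4). The peak between K01G5.10 and tasp-1, which encodes a homolog of the protease taspase, had a signal of 314, with 67.0 (rank 6) and 247 (rank 7) in the replicates. That between ifet-1, a homolog of the eIF4E transporter, and the small-subunit gene rps-1 had 295, with 60.7 (rank 10) and 236 (rank 8). These 4 peaks were thus among the 10 strongest of either replicate.

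Ribosomal protein genes recurred further down the same order. The peak between the spindle and kinetochore gene ska-3 and rps-12 had a signal of 276 (52.0 in replicate 1, 221 in replicate 2). That between rpl-12 and lin-54, which encodes a DNA-binding subunit of the DREAM repressor complex, had 240 (57.7 and 184). The pair rps-19 and hsr-9 had 211 (42.9 and 169), and rps-20 and ekl-4 had 190 (59.0 and 135). With these, 7 of the 15 strongest divergent-promoter peaks had a cytosolic ribosomal protein gene as 1 of the pair.

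The rest of the 15 strongest paired genes of several other kinds. The translation factor gene iff-2, which encodes eIF5A, shared a peak with F54C9.14 (signal 228, 41.8 in replicate 1 and 185 in replicate 2). The window of Y71H2AM.20 and the cytochrome oxidase gene cox-6B also held a start of nduc-2, a respiratory complex I gene (201, with 28.4 and 171). The pair gpap-1 and scpr-1 had a signal of 188 (34.5 and 155). The peak between hsp-110, a chaperone gene, and rpn-3, a gene of the proteasome lid, had 169 (32.5 and 136). The pair dnsn-1 and C24H12.4 had 166 (33.0 and 131), and Y87G2A.18 and Y87G2A.1 had 165 (45.8 and 118). The pair drr-2 and set-16, the second a histone H3 methyltransferase gene of the MLL kind, also had 165 (34.0 and 130). The strongest such peak on chromosome V lay between C47E8.4 and the chaperone gene hsp-90 (163, with 39.1 and 122). Among these 8 pairs the rank in replicate 1 ran from 20 (Y87G2A.18 and Y87G2A.1) to 103 (Y71H2AM.20 and cox-6B), and that in replicate 2 from 13 (iff-2 and F54C9.14) to 63 (Y87G2A.18 and Y87G2A.1).

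The paired starts were close together. For each peak the start nearest to the summit was taken on each strand, and the spacing is the distance between these starts. Its median was 467.5 bp (quartiles 294 and 706, n = 510). Spacings of 200 to 500 bp were the most frequent, at 227 peaks (44.5%, 40.3 to 48.8), followed by 193 peaks at 500 to 1000 bp (37.8%), 50 under 200 bp (9.80%) and 40 at 1000 to 2000 bp (7.84%). The window itself bounds the spacing. For a comparison under the same bound, the relaxed pooled list, which the authors deposited as peaks and background, held 21936 autosomal entries that overlap no thresholded peak, called relaxed-only peaks here. Of these, 812 (3.70%, 3.46 to 3.96) met the same rule, with a median spacing of 661 bp (quartiles 403 and 965).

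At the ends of the range stood pairs of varied function. In 3 peaks the starts were not head to head with a gap. The starts of Y50D4A.4 and wrb-1 crossed by 55 bp (spacing -55 bp, signal 56.7), those of Y17G7B.20 and ash-2 by 6 bp (-6 bp, 42.0), and those of the RNA polymerase II gene rpb-7 and Y54E10BR.2 by 3 bp (-3 bp, 88.0). The widest were mif-4 and ipla-6 at 1659 bp (signal 23.3), the NAD synthesis gene nmat-2 and the endosomal GTPase gene rab-5 at 1598 bp (44.4), and Y46G5A.47 and the spermidine synthase gene spds-1 at 1593 bp (23.0). The medians by spacing differed by less than the distance between the quartiles of any class. The median signal was 42.8 under 200 bp, 48.2 at 200 to 500 bp, 46.0 at 500 to 1000 bp and 50.03 at 1000 to 2000 bp, and the same 4 medians were 10.05, 11.3, 11.0 and 10.7 in replicate 1 and 32.1, 36.7, 36.4 and 39.8 in replicate 2.

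**Figure D1:**
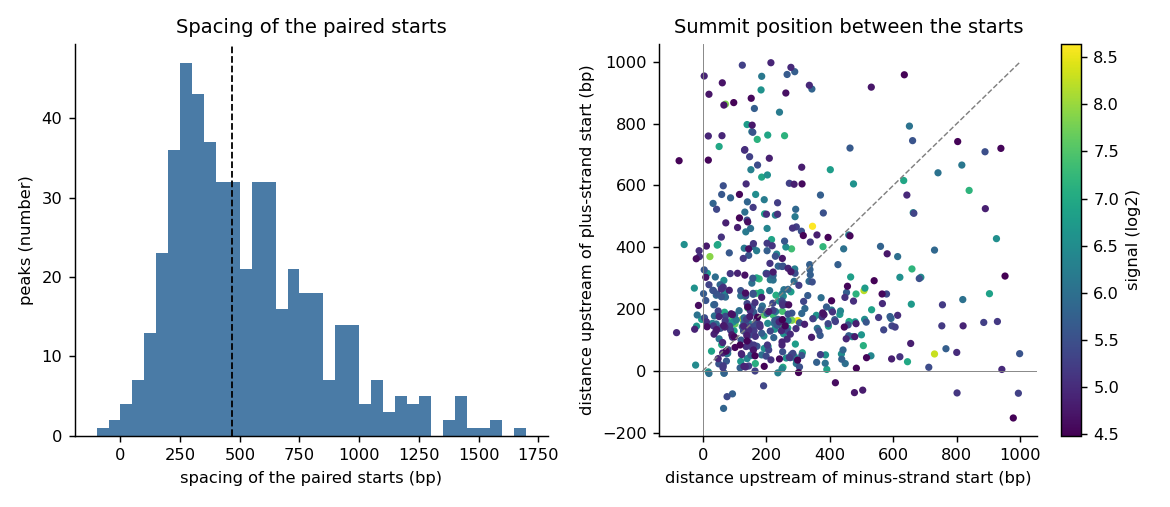
Left, number of divergent-promoter peaks by spacing of the paired starts in bp (bins of 50 bp), with the median of 467.5 bp dashed. Right, distance of each summit upstream of the minus-strand start (x axis) and of the plus-strand start (y axis) in bp, 1 point a peak (n = 510), coloured by log2 signal; points below 0 on an axis lie downstream of that start, and most points lie above 0 on both axes, on either side of the dashed line of equal distance.

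Most summits lay between the starts and, over all spacings together, nearer the middle than the ends. Of the 510 summits, 481 (94.3%, 92.0 to 96.0) fell between the paired starts, against 600 of the 812 relaxed-only summits under the same rule (73.9%, 70.8 to 76.8). The median distance was 137.5 bp to the nearer start (quartiles 63.3 and 204) and 314.5 bp to the farther one (196 and 507), and the summit lay a median of 83.0 bp from the midpoint (37.0 and 165). No strand was favoured, since the minus-strand start was the nearer in 244 peaks (47.8%, 43.5 to 52.2). One-strand peaks lay a median of 226.5 bp from their start. Taking the nearer of 2 starts shortens the distance by construction, so these medians are not on the same footing.

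Along the way from the minus-strand to the plus-strand start, the median position of the 481 summits was 51.5% (quartiles 32.1 and 68.0). The middle 33.3% of the gap held 221 of them (45.9%, 41.5 to 50.4). The relaxed-only summits between starts had a like share there (44.8%, 40.9 to 48.8), so a place near the middle did not set the thresholded peaks apart. By spacing, the share in the middle was 25.7% (14.2 to 42.1) of 35 under 200 bp, 55.8% (49.1 to 62.2) of 217 at 200 to 500 bp, 38.1% (31.5 to 45.2) of 189 at 500 to 1000 bp and 47.5% (32.9 to 62.5) of 40 beyond that. Only at 200 to 500 bp did the interval lie wholly above 33.3%. In the widest class the nearer start was a median of 367.5 bp away, and in the class of 200 to 500 bp it was 115 bp away.

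The shift of a summit between replicates was smaller than most of these distances. Where both replicates had a peak there (n = 483), their summits differed by a median of 13.0 bp, and the shift had an SD of 28.5 bp. The SD was 48.7 bp for one-strand peaks (n = 701) and 60.3 bp for peaks away from promoters (n = 424). A replicate's peak had to overlap the thresholded peak, and the one with the nearest summit was taken, which bounds the shift by construction. At spacings under 200 bp the nearer start was a median of only 36.0 bp from summits between the starts. In 450 of the 510 peaks (88.2%) the deposited summit was at the exact centre of the interval, whose median width was 230 bp. The edges of the interval thus add little to the summit. How far a summit lay from the place where the protein sat was not tested. Of 1014 paired starts, 95 (9.37%) were the first base of the coding sequence, and the median distance from start to coding sequence was 13.0 bp.

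A few gene pairs held more than 1 summit, as in 7 of the 503 distinct pairs, each with 2. Between T26A8.4 and pdtf-1 1 peak had a signal of 132 (28.9 in replicate 1, 105 in replicate 2) and the other 22.9 (10.3 and 13.3), each nearest to a different annotated start. At Y17G7B.20 and ash-2, whose product belongs to a histone H3 methyltransferase complex, the signals were 104 and 42.0. The weaker, whose nearest starts crossed, had no overlapping peak in replicate 1. Between ecps-1 and atx-2, the ataxin-2 homolog, they were 92.4 and 52.7, one 204 bp from the ecps-1 start and the other 72 bp from the atx-2 start. At the window's edge, the summits farthest inside were at T10E9.8 and T10E9.2 (998 bp from the farther start, signal 47.5) and at ciao-1 and clec-104 (997 bp, 30.6). Those nearest outside were at zip-4 and nol-58 (1004 bp, 51.0) and at wht-3 and har-1 (1006 bp, 32.3).

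The orientation of neighbouring genes went with whether a gap held a peak. All 3641 autosomal gaps between head-to-head protein-coding genes were examined for a thresholded summit in the gap or within 200 bp of it, and 749 held one (20.6%, 19.3 to 21.9). Among gaps between genes read in the same direction the share was 6.00% (5.52 to 6.52) of 8715, and between genes that end toward each other 1.07% (0.724 to 1.57) of 2341. Within 1 length class, at 200 to 500 bp, 217 of 627 divergent gaps (34.6%, 31.0 to 38.4) held a summit, 121 of 1529 tandem gaps (7.91%, 6.66 to 9.37) and 5 of 535 convergent gaps (0.935%, 0.400 to 2.17). A divergent gap has a promoter at each end and a tandem gap at 1, and gaps inside operons, whose downstream gene has no promoter of its own, were not separated from other tandem gaps.

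Divergent gaps under 200 bp held a summit in 18.4% (14.0 to 23.8), those of 500 to 1000 bp in 22.5% (19.7 to 25.6), those of 1000 to 2000 bp in 14.3% (11.9 to 17.1) and longer ones in 16.4% (14.5 to 18.5). The share differed by chromosome, from 13.1% (11.2 to 15.3) of 1037 gaps on V to 31.5% (27.8 to 35.5) of 555 on III. On the X chromosome 14 of 347 thresholded peaks met the same rule (4.03%, 2.42 to 6.66). Short divergent gaps were few there, 79 of 570 being under 1000 bp against 1639 of 3641 on the autosomes. Of these short gaps 12 held a summit on X (15.2%, 8.91 to 24.7) and 435 on the autosomes (26.5%, 24.5 to 28.7).

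**Figure D2:**
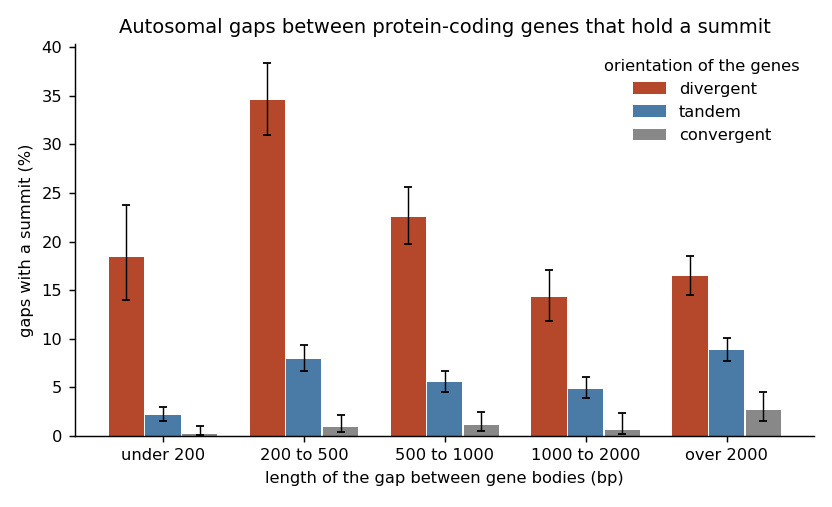
Percent of autosomal gaps between neighbouring protein-coding genes that hold a thresholded summit (y axis), by length of the gap in bp (x axis) and orientation of the genes; error bars are 95% Wilson intervals. Divergent gaps are highest in every length class and peak at 34.6% for 200 to 500 bp.

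Signal was higher at divergent promoters than in the other classes, by less than the spread within a class. The median signal was 47.4 (quartiles 33.0 and 73.2) at divergent promoters, 40.1 (29.2 and 62.8) at one-strand peaks and 35.2 (27.2 and 46.5) away from promoters. In replicate 1 the medians were 11.2, 9.54 and 8.56, and in replicate 2 they were 36.6, 31.7 and 27.2. The median log2 signal of divergent-promoter peaks was thus higher than that of one-strand peaks by 0.24 in the thresholded list, by 0.23 in replicate 1 and by 0.21 in replicate 2. Among peaks above the median signal of the whole list the difference was 0.05, and it was 0.18 with 1 start per gene. The former is a cut on the measured signal itself, which can narrow the difference by construction. Of the 100 strongest autosomal peaks, 45 were at divergent promoters (35.6 to 54.8).

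The replicates ranked these peaks alike. All 510 overlapped a peak of replicate 2 and 483 (94.7%) one of replicate 1. Within the 2052 strongest peaks of each replicate, 482 and 407 were found again, in that order. Over the 483 peaks with a value in both, log2 signal had a Pearson r of 0.739 and a Spearman rho of 0.721. This is a description across peaks of the same 2 libraries, and the thresholded list was itself chosen on how these libraries rank peaks.

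**Figure D3:**
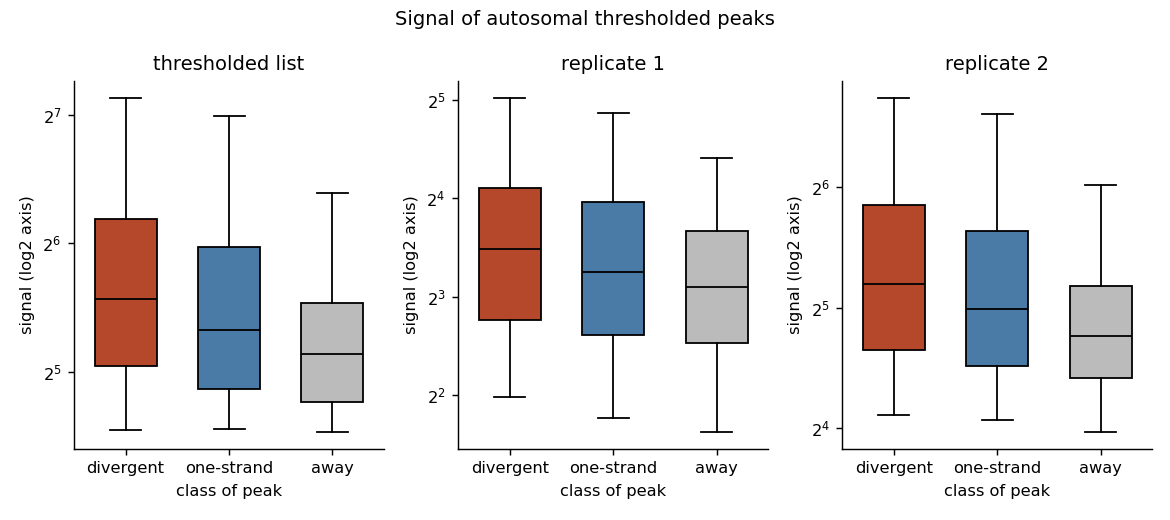
Signal on a log2 axis for autosomal thresholded peaks at divergent promoters (n = 510), at one-strand promoters (n = 744) and away from promoters (n = 451), in the thresholded list and for the overlapping peaks of each replicate (n = 483, 701 and 424 in replicate 1). Boxes give quartiles and median and whiskers the 5th and 95th percentiles; the order of the medians is the same in all 3 panels, and the boxes overlap.

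Ribosomal protein, proteasome, translation factor and splicing factor genes were frequent in the pairs. In all, 1046 of 17242 autosomal protein-coding genes had a start in the window of a divergent-promoter peak (6.07%, 5.72 to 6.43). Of the large-subunit ribosomal protein genes 24 of 48 did (50%, 36.4 to 63.6), and of the small-subunit genes 18 of 31 (58.1%, 40.8 to 73.6). The small list of DREAM and synMuv genes, which act in repression of germline and cell cycle genes, had 4 of 8 (50%, 21.5 to 78.5), led by lin-54 (240) and lin-53 (107). The proteasome followed with 13 of 33 (39.4%), led by rpn-3 (169) and rpt-2 (signal 82.7), then translation factors with 13 of 36 (36.1%), led by iff-2 (228) and eef-2 (129). Splicing factors had 15 of 43 (34.9%), led by prp-19 (126) and rsp-2 (117). The same lists recurred at one-strand peaks. Of all 48 large-subunit genes, 13 lay at a one-strand peak and at no divergent-promoter peak, as did 9 of all 31 small-subunit genes. So did 5 of all 33 proteasome, 6 of all 36 translation factor and 4 of all 43 splicing factor genes, against 738 of all 17242. The frequency of ribosomal protein genes is thus not particular to divergent promoters. For the proteasome, translation factor and splicing factor lists these counts are small, and no intervals were computed for them. List membership follows gene names, and genes of a list that carry another kind of name were not counted.

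A further 8 lists had lower shares, still above that of all genes. Nuclear pore and transport genes had 11 of 40 (27.5%), led by ran-5 (97.6) and npp-14 (95.6). Chaperones had 14 of 54 (25.9%), respiratory chain genes 16 of 62 (25.8%), kinetochore genes 3 of 13 (23.1%, led by knl-3 at 120) and transcription machinery 14 of 65 (21.5%, led by the Mediator gene mdt-19 at 143). Cell cycle and replication genes had 10 of 53 (18.9%, led by rfc-4 at 114), membrane traffic genes 14 of 75 (18.7%) and mitochondrial ribosomal proteins 13 of 70 (18.6%, led by mrps-7 at 125).

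Nearer to the background stood mitochondrial import with 2 of 13 (15.4%, 4.33 to 42.2, led by timm-23 at 114), the vacuolar ATPase with 2 of 17 (11.8%, 3.29 to 34.3), the ubiquitin system with 6 of 53 (11.3%, 5.29 to 22.6, led by ubq-2 at 100.4), aminoacyl-tRNA synthetases with 3 of 32 (9.38%, 3.24 to 24.2) and histones with 6 of 76 (7.89%, 3.67 to 16.2, led by htz-1 at 156). The intervals of these 5 lists hold the 6.07% of all genes. Large families with restricted expression were rarely in the pairs. Chemoreceptors had 6 of 1277 (0.470%, 0.216 to 1.02), C-type lectins 2 of 237 (0.844%), nuclear hormone receptors 2 of 246 (0.813%), neuropeptides 1 of 106 (0.943%), F-box proteins 6 of 305 (1.97%), homeobox genes of the ceh class 1 of 45 (2.22%) and cuticle collagens 3 of 129 (2.33%). The intervals of collagens (up to 6.61%) and ceh genes (up to 11.6%) also hold the share of all genes. The ceh gene was ceh-38 (signal 70.9), and the strongest chemoreceptor gene was sri-5 (142).

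Most genes with such a peak, 958 of 1046, stood at a gap between head-to-head gene bodies, and lists differ in how often their genes do. The shares below leave out the genes with such a peak but no such gap. Transcription machinery, for one, had 14 genes with such a peak, of which 9 stood at a divergent gap. Of 7282 autosomal genes at a divergent gap, 958 had such a peak (13.2%, 12.4 to 14.0). Of the ribosomal protein genes at a divergent gap, 24 of 31 of the large subunit (77.4%, 60.2 to 88.6) and 18 of 22 of the small subunit (81.8%, 61.5 to 92.7) did. Translation factors had 13 of 21 (61.9%), splicing factors 15 of 25 (60%) and the proteasome 12 of 22 (54.5%). Histone genes stood at a divergent gap in 66 of 76 cases and had a peak in 6 (9.09%, 4.23 to 18.4), and chemoreceptors had 6 of 452 (1.33%, 0.610 to 2.87). Transcription machinery genes seldom stood at a divergent gap and had 9 of 17 (52.9%, 31.0 to 73.8), and aminoacyl-tRNA synthetases had 2 of 16 (interval 3.50% to 36.0%). With this denominator transcription machinery moved above the chaperone, respiratory chain, nuclear pore and kinetochore lists, although its interval overlapped theirs. The intervals of histones and synthetases held the share of all genes with either denominator, so neither list was set apart from it.

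**Figure D4:**
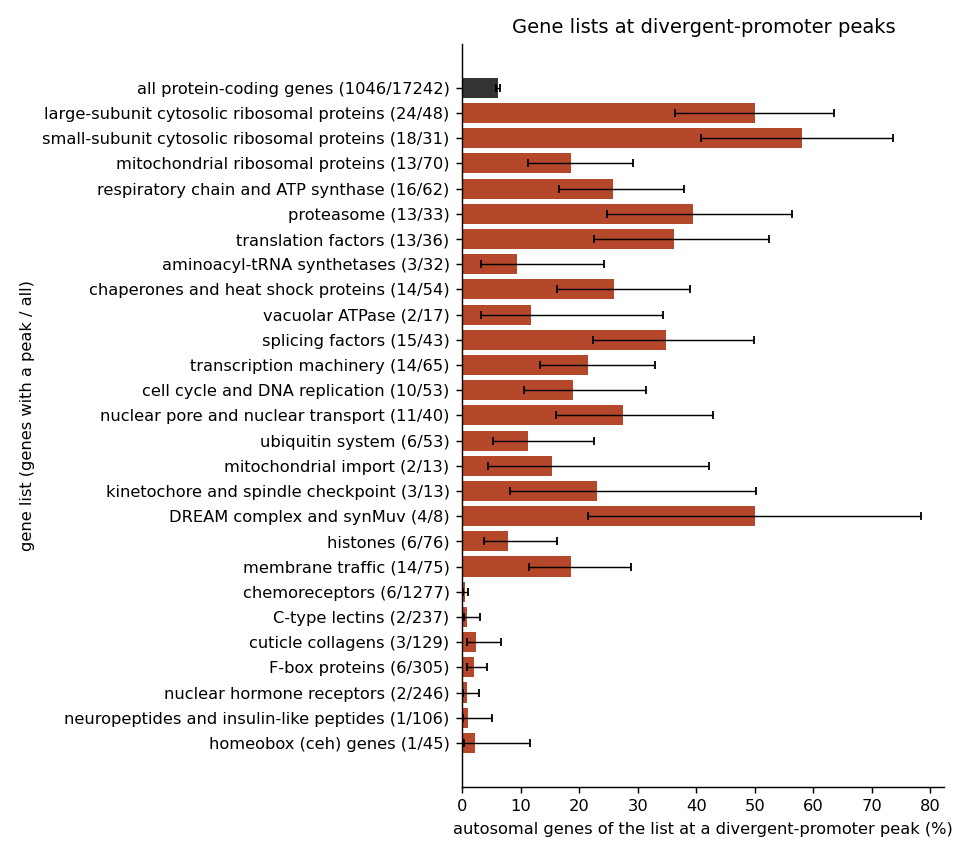
Percent of the autosomal genes of each list with a start in the window of a divergent-promoter peak (x axis), with 95% Wilson intervals and, in the labels, the numbers of genes; the black bar is all autosomal protein-coding genes (6.07%). Both ribosomal protein lists and the 8 DREAM and synMuv genes lie at or above 50%, proteasome, translation and splicing genes follow, and the 7 large families at the bottom lie at or under 2.33%.

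The partner of a gene in these lists was mostly a gene outside them. Of the 510 peaks, 332 had neither paired gene in the 19 lists other than the 7 large families, 158 had 1 and 20 had both. These lists hold a small part of all genes, so most partners would lie outside them in any case. The same counts over all divergent pairs were not made. The median signal was 44.7 with none (9.99 in replicate 1, 34.2 in replicate 2), 58.6 with 1 (13.0 and 45.4) and 51.5 with both (14.2 and 38.9). Among the paired genes, 30.6% had a sequence name only, a share that was not set beside that of all genes.

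Pairs with both genes in a list held some functional matches. The splicing factor genes rsp-2 and rsp-1 faced each other across 407 bp with a peak of signal 117 (20.5 in replicate 1, 94.9 in replicate 2). Ribosomal protein genes faced each other in 3 peaks, at rps-14 and rpl-36 (91.0, with 17.6 and 71.7), rpl-39 and rps-30 (75.9, with 16.9 and 58.0) and rps-10 and rpl-24.1 (62.7, with 20.01 and 42.7). Others joined different lists, as with the elongation factor gene eef-1A.1 and the replication gene rfc-4 (114, with 19.2 and 89.6) or rpl-28 and the mitochondrial ribosomal gene mrpl-49 (105, with 24.98 and 80.4). Pairs of a list gene with a large family were dnj-19 and nhr-47 (118, with 19.5 and 97.2), the E2F gene efl-1 and fbxa-90 (70.6, with 17.4 and 50.7) and the collagen gene col-38 and rpl-5 (65.5, with 13.7 and 50.9). The mitotic checkpoint gene mdf-2 and the complex I gene nduv-3 were 185 bp apart (77.9, with 20.2 and 60.5).

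Peaks with a ribosomal protein gene were stronger than the rest, and most of their summits lay nearer the partner. A cytosolic ribosomal protein gene was in the pair of 39 peaks, whose median signal was 75.9 (quartiles 47.5 and 121) against 45.95 for the other 471. In replicate 1 the medians were 16.9 and 10.8, and in replicate 2 they were 59.3 and 35.1. In the 36 of them with another kind of partner, the summit lay a median of 302 bp (quartiles 253 and 373) from the ribosomal protein gene's start and 177.5 bp (146.5 and 302) from the partner's. It was nearer the ribosomal protein gene in 13 of 36 (36.1%, 22.5 to 52.4), so the interval still includes an even split. At the 23 one-strand peaks of ribosomal protein genes, which have no partner in the window, the median distance to the start was 296 bp (quartiles 275 and 362). The summit nearest to a ribosomal protein start was that of rpl-12 and lin-54, 23 bp from rpl-12 and 370 bp from lin-54. Over all 158 peaks with 1 list gene, the summit was nearer that gene in 69 (43.7%, 36.2 to 51.5).

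Within 200 bp of the summit lay a tRNA gene in 2 of the 510 peaks (0.392%) and a snoRNA gene in 3 (0.588%, 0.200 to 1.72), against 33 (7.32%, 5.26 to 10.1) and 46 (10.2%, 7.73 to 13.3) of the 451 peaks away from promoters. At one-strand peaks the counts were 9 for tRNA genes (1.21%, 0.638 to 2.28) and 22 for snoRNA genes (2.96%, 1.96 to 4.44). Genes annotated only as ncRNA lay within 200 bp of the summit in 62 of the 510 peaks (12.2%, 9.60 to 15.3). This ncRNA share was not set beside that of the other classes.

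Base composition formed a narrow GC peak between AT-rich flanks at these summits. In the 100 bp at the summit the median GC content was 47.0% (quartiles 42.0 and 52.0), as against 48% at one-strand peaks, 50% away from promoters and 37.0% at relaxed-only peaks. Relaxed-only peaks that met the divergent rule had 39.0%, and the midpoints of 1164 divergent gaps of 100 to 1000 bp with no summit had 33.0%. In bins of 25 bp the mean GC content of the divergent-promoter peaks was 53.2% and 53.7% in the bins on either side of the summit. It was 28.7% in the bin centred 112.5 bp to the left and 28.2% in that to the right. One-strand peaks fell to 33.6% and 33.1% in the same bins whereas peaks away from promoters had 42.1% and 42.9% there. The dip in these mean profiles was thus deepest at divergent promoters, and peaks away from promoters showed none. One-strand windows were not turned to the strand of their gene, so their upstream and downstream sides are averaged. Their summits also shifted more between replicates. The part of either in the shallower dip was not tested.

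**Figure D5:**
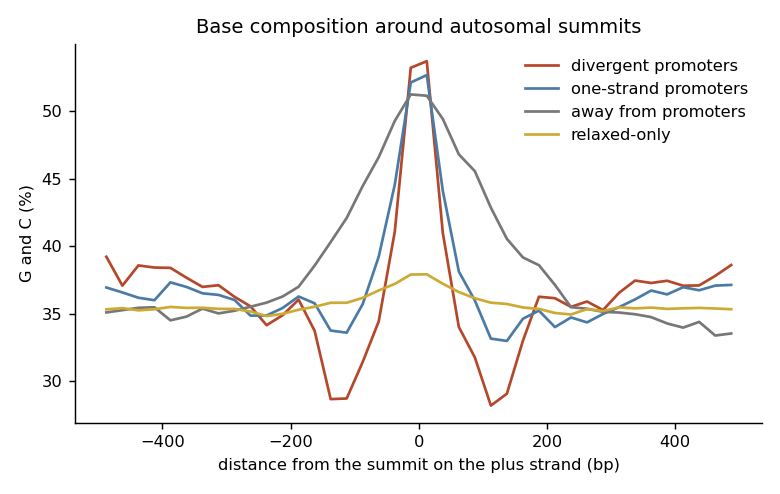
Mean G and C content in percent (y axis) in bins of 25 bp by distance from the summit in bp (x axis) for autosomal peaks at divergent promoters (n = 510), at one-strand promoters (n = 744), away from promoters (n = 451) and relaxed-only peaks (n = 21936). Divergent promoters rise to 53.7% beside the summit and dip to 28.2% at 112.5 bp.

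The flanks were rich in runs of T or A. A run of TTTTTT on either strand occurred in 28.8% of the 100 bp windows at the summit, in 58.0% of those centred 100 bp to the left and in 59.0% of those to the right. At one-strand peaks, again not turned to the strand of the gene, these shares were 20.2%, 45.6% and 50%. The homeodomain core TAAT was in 196 of the 510 summit windows (38.4%, 34.3 to 42.7), in 70.0% and 72.9% of the windows 100 bp to either side, and in 57.9% of the relaxed-only windows. Neither TAATTA (2.55%) nor TAATTG (2.75%) was more frequent at the summits than at relaxed-only peaks (4.06% and 7.33%). The median signal was 45.2 with TAAT and 48.8 without. TAAT was thus less frequent at the centre of these peaks than beside it, in DNA whose GC content differed as well, and the part of base composition in this was not tested.

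Of 14 words searched on both strands, several rich in G and C were more frequent than at relaxed-only peaks. GTCTC was in 36.7% (32.6 to 40.9) of the summit windows, against 7.84% and 10.4% of the windows 100 bp to either side and 15.3% at relaxed-only peaks, and in 39.5% at one-strand peaks and 54.3% away from promoters. CTGCG was in 30.2% (26.4 to 34.3), against 8.74% at relaxed-only peaks, 36.8% at one-strand peaks and 46.1% away from promoters. GCGCGA was in 13.3% (10.7 to 16.6), against 1.58% at relaxed-only peaks, 10.6% at one-strand peaks and 5.54% away from promoters. GAGAGA, which can overlap GTCTC on the opposite strand (GAGAC), was in 17.1% (14.0 to 20.6) and was more frequent at peaks away from promoters (50.1%, 45.5 to 54.7). CACGTG, also rich in G and C, was no more frequent, at 2.16% against 2.12% at relaxed-only peaks. TATAAA was in 2.75%, against 9.18% at relaxed-only peaks, and CCAAT in 13.9%, against 21.0%. At the 812 relaxed-only peaks under the same rule, the like comparison, GTCTC was in 19.5%, CTGCG in 15.6%, GCGCGA in 3.33% and GAGAGA in 13.1% (10.9 to 15.5). There CACGTG was in 1.60%, TATAAA in 7.76% and CCAAT in 18.4%. The summit windows were richer in G and C than those windows (median 47% against 39%), and the part of this was not tested.

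The words marked in the sequences above were chosen after the windows were seen, so their shares at these peaks are descriptive. The first 3 of them were the words of 7 bases whose share at divergent-promoter peaks most exceeded that at relaxed-only peaks under the same rule, and CATACAC was read from the strongest windows. CGCTCCA was in 67 of the 510 windows (13.1%, 10.5 to 16.3), in 6.59% (5.02 to 8.60) at one-strand peaks, 1.33% away from promoters and 0.994% at all relaxed-only peaks. CGCGCTC was in 60 (11.8%), with 8.20%, 4.66% and 0.821% in the same order. CTGGCGC was in 52 (10.2%), with 7.12%, 1.77% and 0.542%. At the 812 relaxed-only peaks under the same rule, the like comparison, the shares were 2.96% for CGCTCCA, 1.72% for CGCGCTC and 0.616% for CTGGCGC. At one-strand peaks, which had no part in the choice, all 3 words were also more frequent than at relaxed-only peaks. One-strand windows were richer in G and C than relaxed-only windows (median 48% against 37%), and the part of this was not tested.

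Of the first 3 words, CTGGCGC went with a higher median signal in the thresholded list and in both replicates. The 52 with CTGGCGC had a median signal of 74.3 (quartiles 52.1 and 93.9) against 45.6 (31.6 and 69.7) for the other 458. In replicate 1 these medians were 17.1 and 10.5, and in replicate 2 they were 55.4 and 34.9. With and without CGCTCCA the medians were 53.7 and 46.7 in the thresholded list and 42.0 and 35.7 in replicate 2, but 10.6 and 11.2 in replicate 1, the other way round. With and without CGCGCTC they were 48.1 and 47.2, with 11.1 and 11.2 in replicate 1 and 37.2 and 36.5 in replicate 2. CATACAC was in only 8 windows (1.57%). The 4 peaks that held both CGCTCCA and CATACAC were those of rpl-15, rpl-20, K01G5.10 with tasp-1, and ifet-1 with rps-1, which are the 4 strongest of the 510. Both words also occurred together at 1 one-strand peak (signal 115, rank 123 of 2052) and at 2 of the 21936 relaxed-only peaks. Because CATACAC was picked from the strongest windows, its place there carries no support of its own.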

How the data were processed

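Peaks on ce11 were used as deposited. The lists, which the authors made for each replicate, for both pooled, and thresholded by irreproducible discovery rate (IDR) per the file headers, give each peak's interval, signal, summit and −log10 q value. The deposited signal is the authors' score, whose scale is not stated. The deposited −log10 q values were not used to rank. The sources used here do not state read depth, aligner, peak caller or threshold, and the intervals therefore cover counting error alone. The ce10 lists were not used.

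Summits (interval start plus offset) were set against WBcel235 with Ensembl release 115 annotation and RefSeq sequence. Windows ran 1000 bp upstream to 200 bp downstream of every protein-coding transcript start. Overlap with a replicate's peak needed 1 bp. Gaps are between neighbouring protein-coding gene bodies, with a margin of 200 bp. Words were searched on both strands in 100 bp at the summit. Intervals are Wilson intervals at 95%. Class, spacing, distance and overlap code was tested on simulated data.

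The peaks, the 26 gene lists and the tests were chosen with earlier results of these data known, and 2 list patterns were corrected after the files were read. The pairs named are the 15 strongest, the strongest on each autosome, the 3 narrowest, the 3 widest and those not head to head, the strongest with both genes in a list or with several summits, the strongest genes of each list, and those at the window's edge. Sequences printed are of the 12 strongest peaks on chromosomes II to V whose window overlaps no annotated coding exon or untranslated stretch. Alternatives were other windows, 1 start per gene, a stricter peak threshold, only head-to-head starts, each replicate alone, and no peaks at ribosomal protein genes. Values were computed with pandas 2.3.3, NumPy 2.4.6 and SciPy 1.17.1 under Python 3.11.15 and drawn with matplotlib 3.10.9.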

Additional observations from a re-analysis of the deposited data

How the results depend on the processing

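With windows reaching 500 or 2000 bp upstream, the share of autosomal thresholded peaks at divergent promoters was 22.2% or 38.8%, the median spacing 374.5 or 600.0 bp, the median distance to the nearer start 125 or 150.0 bp, and the median log2 signal difference from one-strand peaks 0.21 or 0.26. With only peaks above the median signal there were 318, at a share of 36.3%, with a spacing of 459.5 bp, a nearer start at 144.5 bp, a signal difference of 0.050 and 11.9% of divergent gaps holding a summit. With 1 start per gene the spacing was 466.5 bp and the signal difference 0.18, and with only head-to-head starts the spacing was 470.0 bp. Without peaks at ribosomal protein genes, which was added once the data had been seen, the spacing was 453 bp, the nearer start at 135 bp and the signal difference 0.21. With the strongest 2052 peaks of 1 replicate alone, the number at divergent promoters was 462 to 498, the share 27.4% to 29.3%, the spacing 466.5 to 467.5 bp, the share of summits between the starts 92.4% to 93.8%, the nearer start 135 to 137.5 bp away, the signal difference 0.22 to 0.23 and the share of divergent gaps with a summit 18.8% to 20.2%. The windows bound the spacing by construction. The cut at the median signal removes peaks, so it can only lower the share of gaps with a summit. It also cuts on the measured signal, which can narrow the signal difference by construction. The cause of the other shifts was not tested. The share of gaps uses no window or transcript start, so those alternatives give it no value. No paired analysis was possible because there is 1 group of 2 replicates and no comparison between groups. Read depth is unknown and no control library was analysed, which limits every value, and the signal difference from one-strand peaks, which all alternatives kept above 0, is the value that moved most.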
